A study of Saccharomyces cerevisiae with 10 samples.

Results

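The genes described here are 29 genes of Saccharomyces cerevisiae that encode enzymes of the tricarboxylic acid (TCA) cycle, the glyoxylate cycle and gluconeogenesis, with the pyruvate carboxylases and the malic enzyme that link them to pyruvate. They were chosen by name, as the CIT, ACO1, IDH, IDP, KGD, LPD1, LSC, SDH, FUM1, MDH, ICL1, MLS1, PCK1, FBP1, PYC and MAE1 genes, and not from their values. All 29 are among the 6608 features of the table for rich medium (YPD), and 28 are among the 6190 features of the table for synthetic medium (YNB). All samples were of the 74D694 strain background, grown at 30 °C to an OD600 between 0.6 and 0.8 and treated with cycloheximide, a drug that halts elongating ribosomes. In YPD, cells carrying the prion [PSI+] were compared with [psi-] cells, which are free of it, in 2 libraries of ribosome footprints and 1 library of mRNA per strain. In YNB with 2% glucose and no uracil, [PSI+] cells were compared with [PSI+] cells that overexpressed SUP35-Cter, in 2 footprint samples per condition. [PSI+] is the aggregated form of Sup35, the release factor that helps to end translation, and SUP35-Cter is its C-terminal part, which works in termination and lacks the prion domain.

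The TCA cycle oxidises acetyl-CoA in mitochondria to reducing power for respiration and gives the carbon skeletons of glutamate and other amino acids. The glyoxylate cycle bypasses its decarboxylation steps, so that cells can grow on acetate, ethanol or fatty acids, and gluconeogenesis then builds sugar phosphates from the product. In budding yeast growing on glucose, transcription of the glyoxylate cycle and gluconeogenesis genes is strongly repressed and that of many TCA cycle genes is kept low. The part of the cycle that leads to 2-oxoglutarate is kept active by the retrograde pathway, through which the state of mitochondria acts on nuclear genes such as CIT2.

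The YPD footprint libraries held 2497170 and 3257673 reads in [PSI+] and 3461402 and 3579039 in [psi-], and the mRNA libraries 5494957 and 2480012, so that a floor of 3 counts lay between 0.546 and 1.21 CPM, which are counts scaled to a common library total of 1000000. Footprints on SUP35 itself stood at 305 and 296 CPM in [PSI+] and at 644 and 633 CPM in [psi-], and in the authors' deposited table for YNB its mean was 3.29-fold higher with SUP35-Cter (adjusted p 0.00529). SUP35 mRNA went the other way than its footprints, at 493 CPM in [PSI+] and 388 CPM in [psi-]. In the [psi-] mRNA library the 4 genes of the 2-micron plasmid had 0 reads, against 787 and 792 reads in the [psi-] footprint libraries and 6620 in the [PSI+] mRNA library. Every mRNA and translational efficiency value below rests on that library, there is no other [psi-] mRNA library to set in its place, and what these differences contribute to those values was not tested. Between the [psi-] footprint libraries the spread was close to that of counting alone, with a chi-square of 1.27 per degree of freedom, against 19.4 to 19.8 between the [PSI+] libraries. The footprint tests pooled the spread of both strains into 1 estimate. The close [psi-] libraries therefore tended to lower that estimate below the spread between the [PSI+] libraries. How the calls fared without either [psi-] library is given below.

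In YPD footprints the genes were lower in [PSI+] more often than higher. Of the 26 genes with enough reads to be tested, 10 fell in [PSI+], 2 rose and 14 did not pass. Over all 5135 genes tested, 18.9% fell and 15.7% rose. The genes that fell were CIT1, IDH2, LPD1, IDP3, LSC2, SDH3, MDH3, ICL1, MLS1 and PYC1, and those that rose were IDP1 and MAE1. The median log2 fold change was -0.52 over the 26 genes and 0.02 over all genes, and 21 of the 26 had a value below 0. Both [PSI+] libraries lay below both [psi-] libraries for 18 genes and above them for 5, against 37.4% and 35.5% of all genes tested, and the groups overlapped for LSC1, SDH2 and MDH2. MLS1 and CIT3 passed the filter on low counts only through their [psi-] libraries, so the fall of MLS1 counts among the 10 partly by that filter. ICL1, which fell, and IDP2 reached the filter level in 1 [PSI+] library and in both [psi-] libraries. Calls were made with the quasi-likelihood test of edgeR, adjusted by Benjamini-Hochberg over all genes tested, at a threshold of 0.05. With upper-quartile scaling, 9 of these genes fell and 4 rose, while the share of higher genes among all calls went from 45.3% to 60.5%. That share was 23.3% with DESeq2 on all features, 40.4% with DESeq2 on the genes that passed the filter, and 22.7% with the [psi-] libraries summed. With either [psi-] library left out, or with both summed into 1, the calls that held were those of CIT1, LPD1, MLS1 and MAE1. Under the same settings those of IDH2, IDP1, IDP3, LSC2, SDH3, MDH3, ICL1 and PYC1 were lost, with the same direction. Since the libraries come from whole cultures, a lower level in every cell and fewer cells with a high level cannot be told apart.

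**Figure D1:**
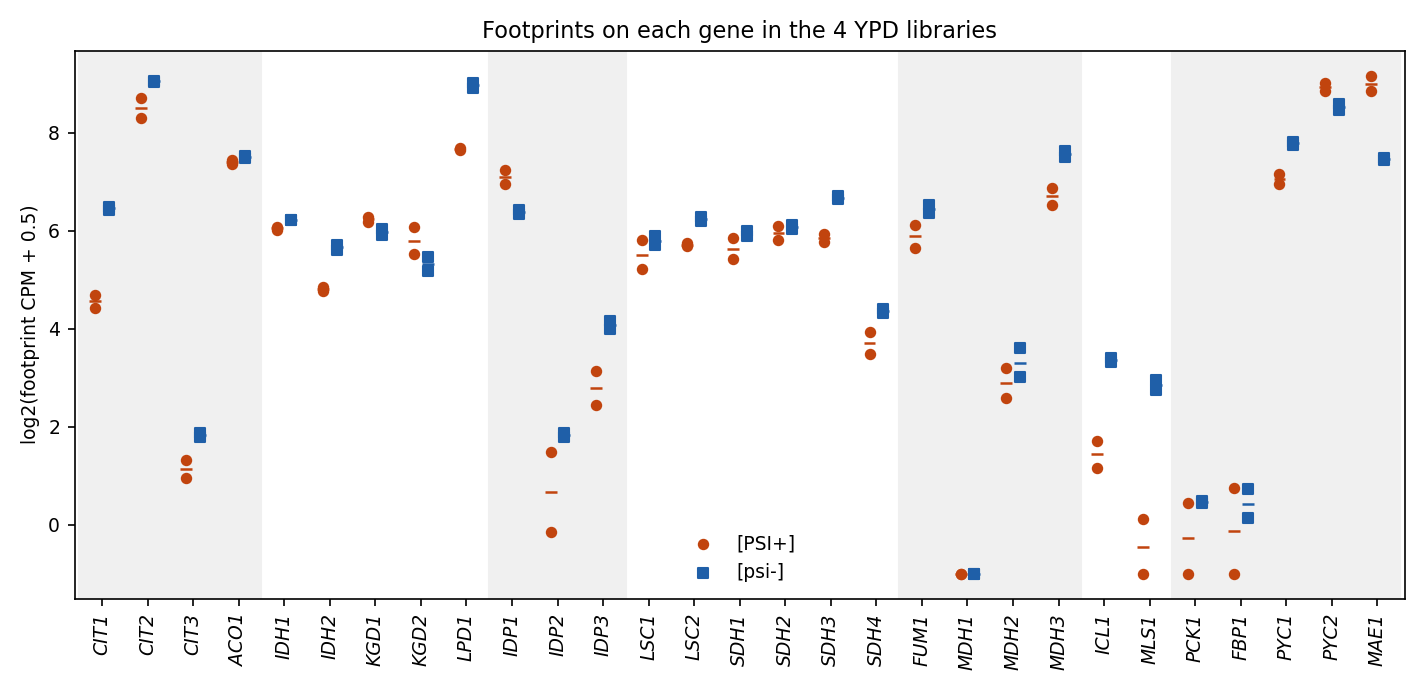
Footprints on each of the 29 genes in the 4 YPD libraries, as log2(CPM + 0.5), with 1 point per library and a short line at the mean of the 2 libraries of a strain; shaded blocks separate the enzyme groups. CIT1, LPD1, ICL1 and MLS1 lie lower in both [PSI+] libraries, MAE1 lies higher in both, and MDH1 has no read in any library.

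Citrate synthase joins acetyl-CoA to oxaloacetate at the entry of the cycle. CIT1 (YNR001C), the main mitochondrial isoenzyme, had 25.4 and 20.8 footprint CPM in the [PSI+] libraries and 89.3 and 85.2 in the [psi-] libraries. The groups were far apart, and the log2 fold change was -1.89 ± 0.16 (SE, n = 2 per strain; edgeR adjusted p 0.0012). CIT2 (YCR005C), the peroxisomal isoenzyme and the standard reporter of retrograde signalling, had 414 and 314 CPM against 529 and 526. Its [PSI+] libraries were also below both [psi-] libraries, but the difference did not pass (log2 fold change -0.53 ± 0.17, adjusted p 0.056). CIT3 (YPR001W), the minor mitochondrial isoenzyme, had only 10 reads in all over the [PSI+] libraries and 21 over the [psi-] libraries, and did not pass (log2 fold change -0.52 ± 0.35).

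Aconitase turns citrate into isocitrate. ACO1 (YLR304C), the aconitase of the cycle, had 173 and 163 CPM in [PSI+] and 182 and 178 in [psi-], a log2 fold change of -0.10 ± 0.11 that did not pass.

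The oxidative steps from isocitrate to succinyl-CoA release carbon dioxide and form NADH. LPD1 (YFL018C), the lipoamide dehydrogenase shared by the 2-oxoglutarate, pyruvate and glycine decarboxylating complexes, had 205 and 201 CPM in [PSI+] and 518 and 482 in [psi-]. Its libraries agreed closely within each strain, and it fell by 1.30 ± 0.12 on the log2 scale (adjusted p 0.0016). KGD1 (YIL125W) and KGD2 (YDR148C), the other subunits of 2-oxoglutarate dehydrogenase, had log2 fold changes of 0.27 ± 0.13 and 0.52 ± 0.23 and did not pass, with both [PSI+] libraries above both [psi-] libraries for each. Of the 2 subunits of NAD-dependent isocitrate dehydrogenase, IDH2 (YOR136W) fell from 51.8 and 48.3 CPM to 28.2 and 26.5 (log2 fold change -0.85 ± 0.15, adjusted p 0.011). IDH1 (YNL037C) had 67.0 and 63.8 CPM in [PSI+] and 73.8 and 74.0 in [psi-], which did not pass (log2 fold change -0.17 ± 0.12).

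The NADP-dependent isocitrate dehydrogenases make NADPH and 2-oxoglutarate in separate compartments. IDP1 (YDL066W), the mitochondrial enzyme, had 122 and 151 CPM in [PSI+] against 80.1 and 84.9, and rose by 0.74 ± 0.15 on the log2 scale (adjusted p 0.015). IDP3 (YNL009W), the peroxisomal enzyme used for unsaturated fatty acids, had 8.33 and 4.91 CPM against 15.5 and 17.3. It fell by 1.23 ± 0.31 (adjusted p 0.029), on 38 and 112 reads in all. The cytosolic enzyme IDP2 (YLR174W) had 1 and 8 reads in [PSI+] and 10 and 11 in [psi-]; its log2 fold change of -0.64 ± 0.45 did not pass.

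Succinyl-CoA ligase yields ATP, and succinate dehydrogenase passes electrons to the respiratory chain. For the ligase, LSC2 (YGR244C) (beta subunit) had 53.1 and 50.8 CPM against 77.4 and 72.2 and fell by 0.51 ± 0.13 on the log2 scale (adjusted p 0.029). LSC1 (YOR142W) (alpha subunit) had 55.1 and 36.6 against 58.6 and 51.4 CPM, with overlapping libraries. Of the 4 succinate dehydrogenase subunits, SDH3 (YKL141W), a membrane anchor that binds the quinone, had 60.3 and 54.2 CPM against 103 and 99.1. It fell by 0.81 ± 0.13 (adjusted p 0.0076). The other three did not pass: log2 fold changes were -0.62 ± 0.24 for the other anchor SDH4 (YDR178W), -0.27 ± 0.18 for the flavoprotein SDH1 (YKL148C) and -0.10 ± 0.15 for the iron-sulfur protein SDH2 (YLL041C). SDH1 has the similar copy YJL045W and SDH3 the similar copy SHH3, between which the counting could have divided reads.

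Fumarase and malate dehydrogenase close the cycle. FUM1 (YPL262W) had 69.0 and 49.6 CPM in [PSI+] and 81.0 and 91.0 in [psi-], both [PSI+] libraries being lower, and did not pass (log2 fold change -0.54 ± 0.19, adjusted p 0.074). MDH3 (YDL078C), the peroxisomal malate dehydrogenase, fell from 196 and 181 CPM to 117 and 91.5 (log2 fold change -0.86 ± 0.16, adjusted p 0.012). MDH2 (YOL126C), the cytosolic enzyme of gluconeogenesis, had 22 and 19 reads against 39 and 26, which overlapped after scaling. MDH1 (YKL085W), the mitochondrial enzyme, is listed at 0 in all 6 YPD libraries, as are 715 features in all, and it was not analysed here for YNB.

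The glyoxylate cycle genes were low in both strains and lower in [PSI+]. MLS1 (YNL117W), the malate synthase, had 0 and 2 reads in the [PSI+] footprint libraries and 21 and 25 in the [psi-] libraries. This is 18.8-fold lower per read of depth, with a 95% counting interval of 4.92 to 160, and the log2 fold change of the fit, which rests on the added counts, was -2.77 ± 0.38 (adjusted p 0.0052). ICL1 (YER065C), the isocitrate lyase, had 7 and 6 reads against 34 and 33, or 4.21-fold lower (2.30 to 8.32). It fell by 1.81 ± 0.32 on the log2 scale (adjusted p 0.011). These intervals cover counting error only. MLS1 reached the level of the filter on low counts in 0 [PSI+] libraries and ICL1 in 1, so both were tested through their [psi-] libraries.

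The gluconeogenic genes were close to the floor in both strains. PCK1 (YKR097W), phosphoenolpyruvate carboxykinase, had 3 footprint reads in all in [PSI+] and 6 in [psi-], and FBP1 (YLR377C), fructose-1,6-bisphosphatase, also had 3 and 6. A difference in either was not detectable at this depth. Pyruvate carboxylase, which refills oxaloacetate, is made from a pair of closely similar genes. PYC1 (YGL062W) had 142 and 123 CPM against 224 and 215 and fell by 0.72 ± 0.13 on the log2 scale (adjusted p 0.011). PYC2 (YBR218C) had 459 and 517 against 352 and 383 CPM, higher in both [PSI+] libraries without passing (log2 fold change 0.41 ± 0.13, adjusted p 0.060). MAE1 (YKL029C), the mitochondrial malic enzyme that turns malate into pyruvate, had 572 and 457 CPM in [PSI+] and 177 and 174 in [psi-]. It rose by 1.55 ± 0.15 on the log2 scale (adjusted p 0.0019), with the libraries of the strains well apart. Because the reads of PYC1 and PYC2, and of CIT1 and CIT2, could have been divided between near copies, each member's own value is uncertain.

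The mRNA of the same genes was lower in [PSI+] by more than their footprints. Of 26 genes with at least 20 mRNA reads over both libraries, 21 were past 2-fold lower in [PSI+] relative to the median of all genes and 0 were past 2-fold higher. Among all 5213 genes measured so, 22.2% were past 2-fold lower and 21.6% past 2-fold higher. With 1 mRNA library per strain there is no replicate check and no test, and the intervals below cover counting error between these libraries only. The median log2 ratio of all genes was -0.41, and it was subtracted from the log2 values given here. Over the 26 genes the median was -1.52. The folds below, with their intervals, are ratios of CPM from library totals, without that subtraction. Folds lower in [PSI+] are therefore larger there than on the scale of the 2-fold calls. With the median taken off, the log2 ratio was -3.00 for CIT1, and -1.02 for LPD1, which barely passed 2-fold.

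At the entry of the cycle, CIT1 mRNA stood at 114 CPM in [PSI+] and 1209 CPM in [psi-], 10.6-fold lower (9.75 to 11.6), and CIT3 at 4.19 and 62.9 CPM, 15.03-fold lower (9.66 to 24.4). ACO1 was 4.31-fold lower and CIT2 3.51-fold lower. All 5 genes of the oxidative steps were past 2-fold lower, from IDH1 at 15.5 against 125 CPM (8.08-fold) to LPD1 at 146 against 392 CPM (2.70-fold). LSC1 had 8.92 against 128 CPM (14.3-fold, 10.6 to 19.8), and SDH1 17.7 against 136 CPM (7.72-fold). PYC1 had 66.4 against 873 CPM (13.1-fold, 11.8 to 14.7). Of the 5 genes that were not past 2-fold, SDH3 (log2 ratio 0.13 after the median is taken off) was of the succinate group. The others were the malate dehydrogenases MDH2 (-0.54) and MDH3 (0.04), PCK1 (0.55, on 17 and 7 reads) and MAE1 (0.25). For FBP1, 0 mRNA reads were found in [PSI+] against 19 in [psi-]. The ratio is 14.0-fold lower when [PSI+] is set at a floor of 3 counts, and its exact counting interval begins at 10.3-fold lower. MLS1 had 3 and 11 reads, a ratio with a counting interval from 2.15- to 45.4-fold lower.

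**Figure D2:**
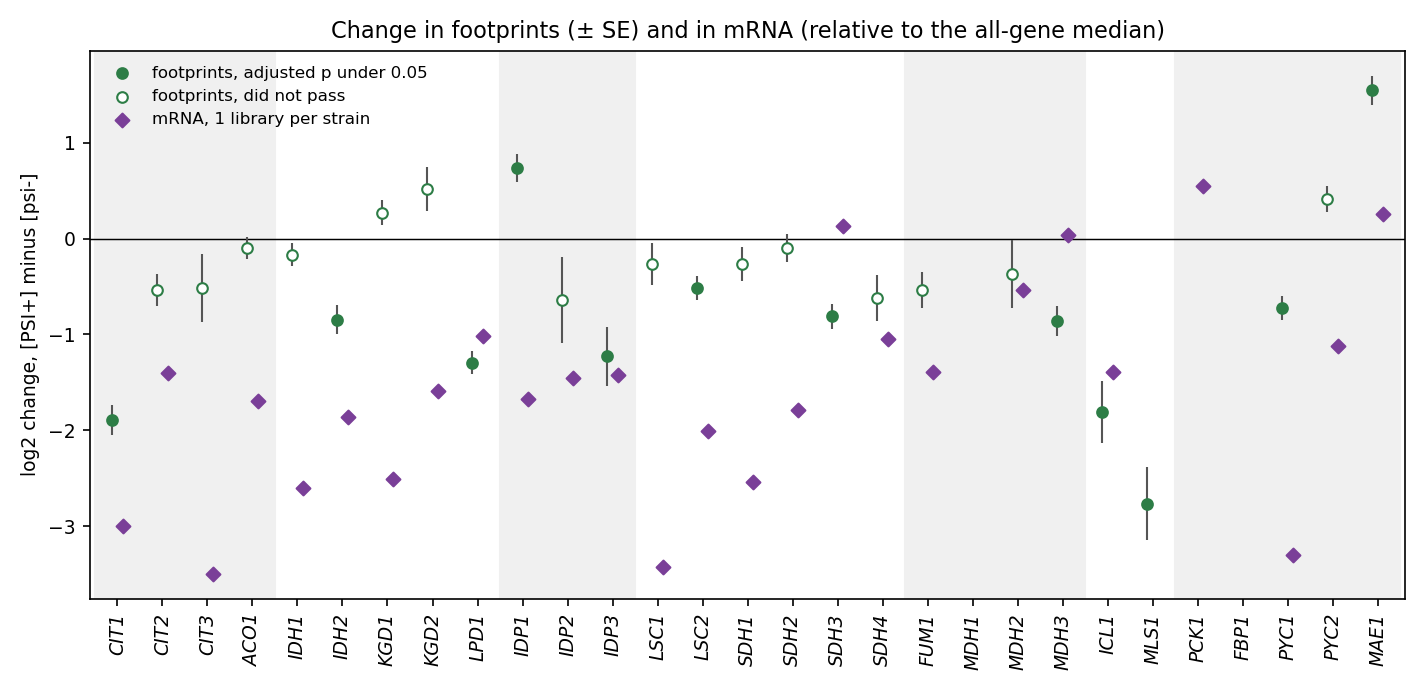
Change of each gene between the YPD strains, as log2 of [PSI+] over [psi-]; circles are footprint fold changes with their SE (filled where the adjusted p was under 0.05), and diamonds are mRNA ratios of 1 library per strain relative to the median of all genes. Most diamonds lie below the circle of the same gene, as for LSC1 and PYC1, whereas for MAE1, SDH3 and MDH3 the mRNA value is within 2-fold.

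Both kinds of library were then set side by side. Of the 21 genes with mRNA past 2-fold lower, 7 also fell in footprints (CIT1, IDH2, LPD1, IDP3, LSC2, ICL1 and PYC1), 13 did not pass there, and IDP1 rose. Of all 1080 genes with mRNA past 2-fold lower and a footprint test, 38.2% fell in footprints. Summed over the 29 genes, footprints came to 2815 and 2616 CPM in [PSI+] and 3096 and 3042 in [psi-]. The summed mRNA came to 2559 CPM in [PSI+] and 10330 in [psi-]. Within [PSI+], the log2 ratio of footprint to mRNA CPM had a median of -0.14 over the 22 genes with at least 20 reads of each kind, or -0.17 relative to all genes, and 10 genes lay above the median of all genes. Within [psi-] it was -2.04 over 25 genes, or -1.71 relative to all genes, and 4 genes lay above that median. MAE1 stood highest in both strains, at 4.49 and 3.04 relative to all genes.

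Translational efficiency, the footprints on a gene relative to its mRNA, was compared between the strains as the interaction of strain and kind of library in the same edgeR procedure. It assumes that each lone mRNA library varies like the footprint libraries. Of 28 genes tested, 16 rose in [PSI+], 2 fell and 10 did not pass, against 17.9% of all 5437 genes that rose and 20.5% that fell. The median log2 change was 1.195 over the 28 genes and 0.02 over all genes. With upper-quartile scaling, which raised the median of all genes from 0.02 to 0.29 and the share of higher genes among all calls from 46.7% to 61.4%, 18 rose and 0 fell. DESeq2 on all features put that median at -0.29 and that share at 25.5%, and 12 of these genes rose and 2 fell.

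Genes of the citrate synthase, aconitase, decarboxylation and succinate steps were 11 of the 16 that rose. LSC1 rose by 3.12 ± 0.41 on the log2 scale (adjusted p 0.0054), CIT3 by 2.91 ± 0.51 (0.011), KGD1 by 2.77 ± 0.21 (0.0031), IDH1 by 2.41 ± 0.23 (0.0033), SDH1 by 2.25 ± 0.32 (0.0067) and KGD2 by 2.10 ± 0.36 (0.010). SDH2, ACO1, LSC2, CIT1 and IDH2 rose by between 1.68 and 1.005. Outside these steps, IDP1 rose by 2.40 ± 0.25, PYC1 by 2.57 ± 0.22, PYC2 by 1.52 ± 0.23 and MAE1 by 1.30 ± 0.29. Of the genes that rose and had a measured mRNA ratio, 14 were below the median of all genes in mRNA and MAE1 was above it. Of all 26 genes with a measured mRNA ratio, 22 were below that median. Translational efficiency is computed from the same mRNA libraries, so a lower mRNA value in [PSI+] raises it by construction, and this count is no separate evidence. FBP1 also passed (4.81 ± 1.13, adjusted p 0.024), but this value rests on 0 against 19 mRNA reads and on the added counts, and with these subtracted the adjusted p was 0.11, the highest of its alternatives, which began at 0.00017. The genes that fell, SDH3 (-0.95 ± 0.21, adjusted p 0.020) and MDH3 (-0.91 ± 0.26, adjusted p 0.041), had fallen in footprints and were within 2-fold in mRNA. With either [psi-] footprint library left out or with both summed, the calls on CIT1, IDH2, MAE1, SDH3 and MDH3 were lost, and that on PYC2 was lost without [psi-] replicate 1 and with the pair summed. DESeq2 on all features also lost those on CIT1, IDH2 and MAE1, and on the genes that passed the filter it lost those on IDH2, SDH3 and MDH3. The glyoxylate cycle genes and LPD1 did not pass, at -0.44 ± 0.43 for ICL1, -0.51 ± 0.71 for MLS1 and -0.29 ± 0.20 for LPD1.

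**Figure D3:**
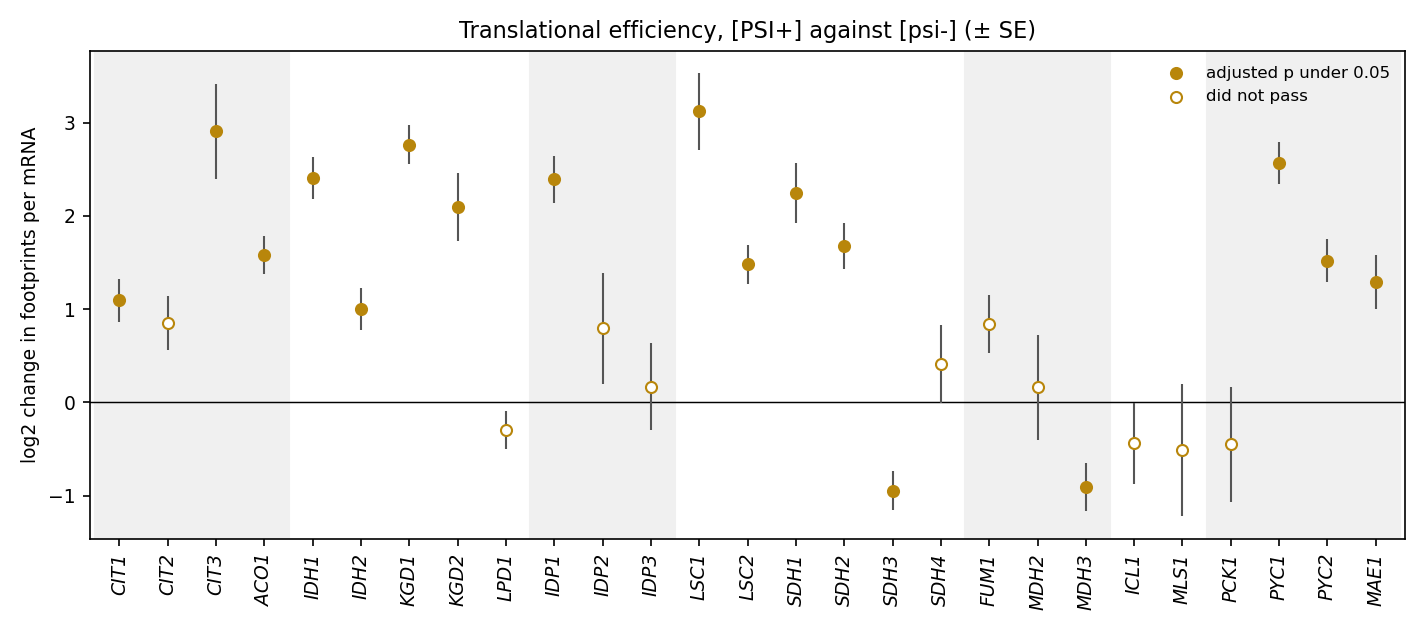
Change in translational efficiency of 27 genes between the YPD strains, as the log2 interaction of strain and kind of library in edgeR, with its SE; filled points had an adjusted p under 0.05, and FBP1 and MDH1 are left out. Points run from -0.95 for SDH3 to 3.12 for LSC1, and LPD1, ICL1, MLS1 and PCK1 lie below 0 without passing.

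Levels of isoenzymes and subunits were compared as reads per kilobase of coding length. In YPD footprints CIT2 stood at 299 and 227 CPM per kilobase in [PSI+] and at 382 and 380 in [psi-], the highest of the 29 genes in both [psi-] libraries. In [PSI+] it lay beside MAE1, at 284 and 227, and the pair could not be ordered. In [psi-] the next were LPD1, at 346 and 321, and MDH3, at 190 and 175. CIT1 held 5.54% and 5.95% of the citrate synthase footprints in [PSI+] and 13.9% and 13.4% in [psi-], with CIT2 holding most of the rest. PYC1 held 23.7% and 19.3% of the pyruvate carboxylase footprints against 39.0% and 36.0%. IDP1 held 93.2% and 95.3% of the NADP isocitrate dehydrogenase footprints against 80.9% and 80.2%. In each of these families the shares of the strains did not overlap, which follows from the fold changes given above. In mRNA the shares of [PSI+] and [psi-] were 13.1% and 30.9% for CIT1 and 32.0% and 68.1% for PYC1.

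The subunits of a complex kept other proportions in mRNA than in footprints. IDH1 made up 25.2% of the summed IDH mRNA per kilobase in [PSI+] and 35.9% in [psi-], but 70.9% and 71.1% of the footprints in [PSI+] and 59.4% and 61.1% in [psi-]. LSC1 made up 17.2% and 35.7% of the ligase mRNA in [PSI+] and [psi-], and between 48.0% and 57.4% of its footprints in the 4 libraries. For succinate dehydrogenase, SDH3 made up 65.9% of the mRNA in [PSI+] and 33.8% in [psi-], and SDH1 2.29% and 7.44%. In the 4 footprint libraries SDH3 made up between 40.3% and 54.05%, so that its mRNA share lay above them in [PSI+] and below them in [psi-], and SDH1 between 9.57% and 13.25%.

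**Figure D4:**
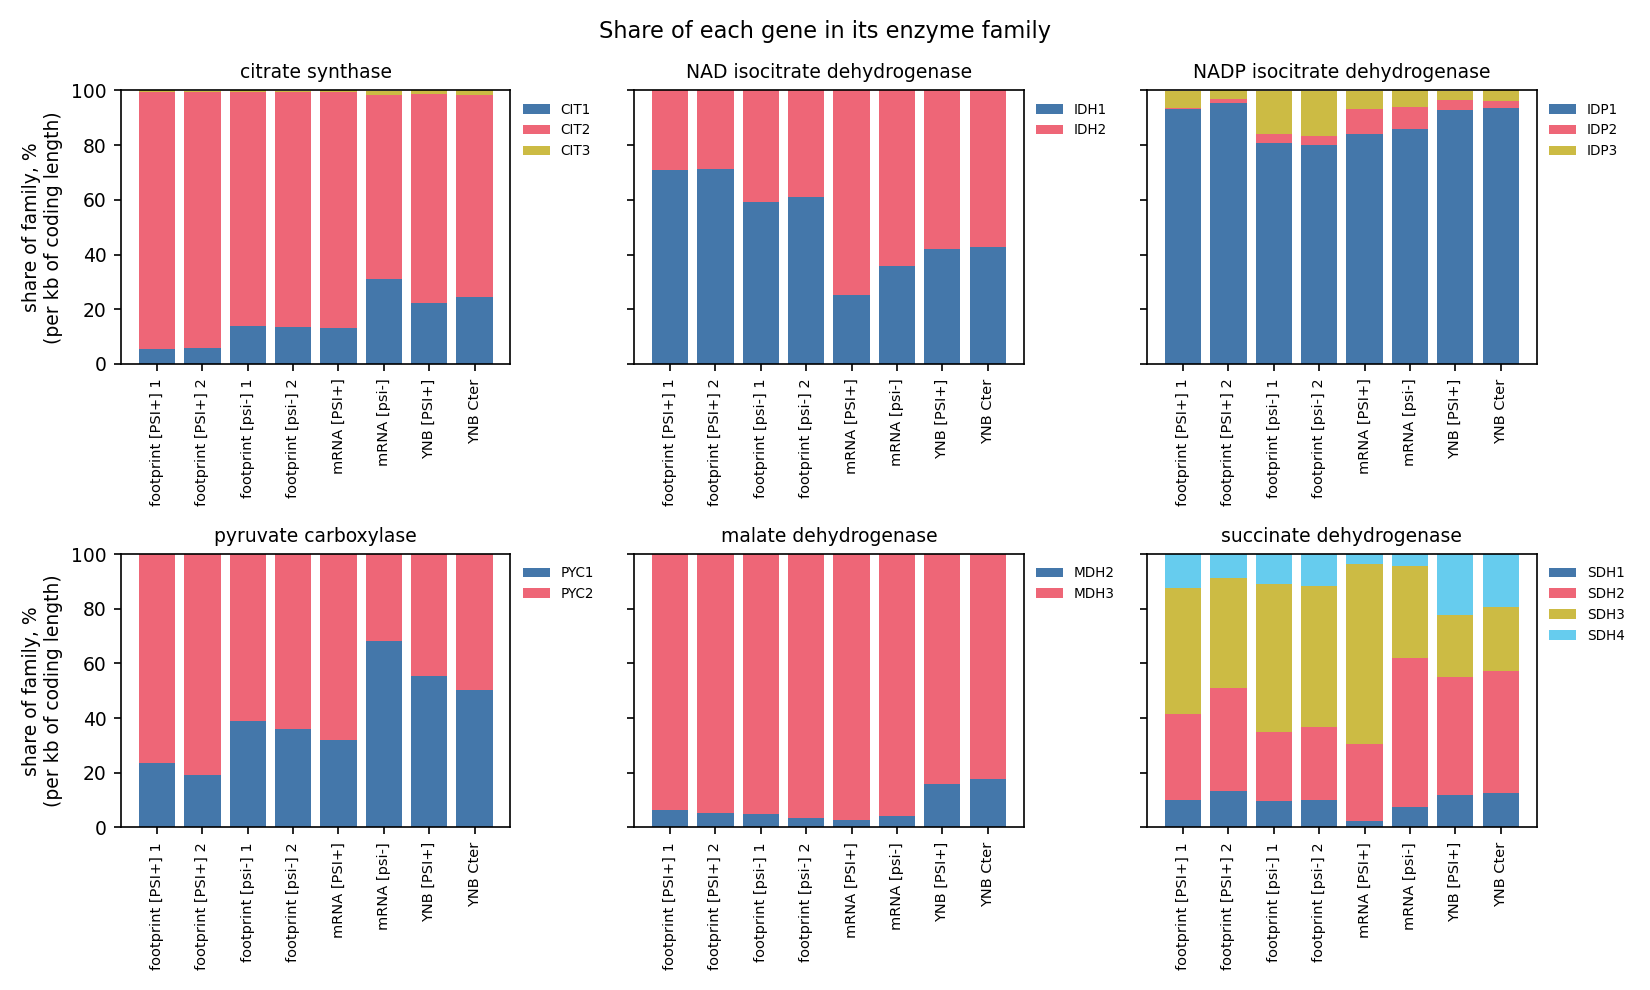
Share of each gene in its enzyme family, in percent of the family's reads per kilobase of coding length, in the 4 YPD footprint libraries, the 2 YPD mRNA libraries and the authors' 2 condition means in YNB (Cter is [PSI+] with SUP35-Cter). The CIT1 and PYC1 shares are lower in [PSI+] than in [psi-] in both kinds of YPD library.

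In YNB, overexpression of SUP35-Cter in [PSI+] cells came with no call among these genes. The authors' deposited table, which gives condition means and no value per library, gives 0 of the 28 genes an adjusted p below the 0.05 threshold, against 1.47% of the 5566 genes with a mean of 10 or more. At an unadjusted p under 0.05 the authors' deposited table has 1 of them, CIT3, against 8.28% of all genes. For CIT3 the authors' deposited table has means of 552 without and 930 with SUP35-Cter, a 1.68-fold higher value (p 0.020, adjusted p 0.42). The lowest ratio in the authors' deposited table was that of ICL1, with means of 560 and 268 and a ratio of 0.478 (adjusted p 0.96). The median log2 ratio from the authors' deposited table was 0.11 over the 28 genes and -0.02 over all genes, with 16 genes above a ratio of 1 and 12 below it. Some calls in YPD footprints held with either [psi-] library left out or with both summed. For these, the authors' deposited table gave ratios with SUP35-Cter of 1.42 for CIT1, 1.13 for LPD1, 1.199 for MAE1 and 0.851 for MLS1. The adjusted p was 1 for each. Among the other called genes, ratios above 1 were 1.27 for IDP3, 1.15 for IDP1, 1.12 for SDH3 and 1.015 for LSC2. Those below 1 were 0.851 for IDH2, 0.791 for PYC1, 0.722 for MDH3 and 0.478 for ICL1. MLS1 had passed the YPD filter on low counts only through its [psi-] libraries.

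**Figure D5:**
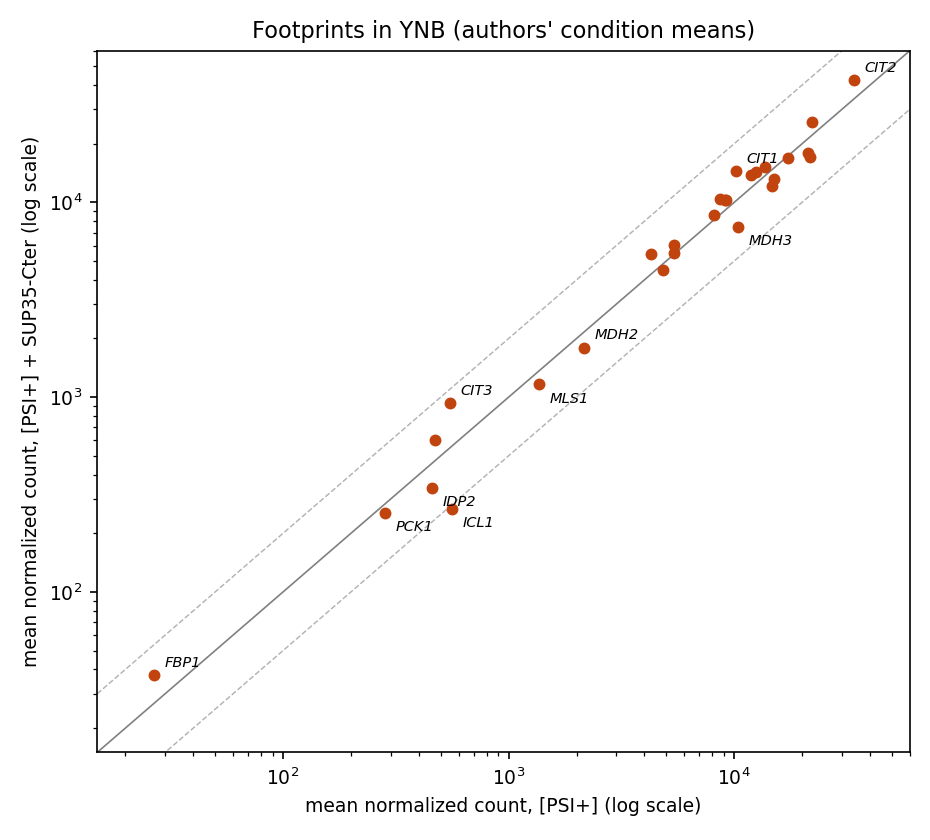
Mean normalized footprint count of 28 genes in YNB from the authors' deposited table, [PSI+] on the x axis and [PSI+] with SUP35-Cter on the y axis, both on log scales; the solid line marks equal means and the dashed lines 2-fold differences. ICL1 lies just below the lower dashed line and did not pass the authors' adjusted test, and the other genes lie between the dashed lines.

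The same [PSI+] background can be set side by side in the media, with the YNB means scaled to the same total as CPM, under the limit that the tables were mapped and scaled separately and that no test joins them. From the authors' deposited table, the 29 genes less MDH1 summed to 9370 CPM in YNB [PSI+] cells and 11180 with SUP35-Cter. In YPD the corresponding sums were 2815 and 2616 in [PSI+]. Of 28 genes, 26 were higher in the YNB mean of the authors' deposited table than in both [PSI+] YPD libraries, against 52.1% of 5507 genes in both tables, and MAE1 was lower than both. For IDH2 the authors' deposited table gave 748 CPM, beside 28.2 and 26.5 CPM in YPD. For MLS1 the authors' deposited table gave 48.3 CPM, beside 0 and 0.577 CPM in YPD, while FBP1 stood at 0.944 CPM beside 1.19 and 0 CPM.

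Genes around the cycle were followed with lists of its suppliers, carriers and regulators, whose counts stand beside 18.9% of all genes tested that fell in YPD footprints and 15.7% that rose. Of 8 genes of the pyruvate dehydrogenase complex, which feeds acetyl-CoA to the cycle, 6 did not pass in YPD footprints and 2 rose: LAT1, the acetyltransferase subunit, by 0.62 ± 0.13 on the log2 scale, and the kinase PKP2 by 1.42 ± 0.25. Their median log2 fold change was 0.07. The complex shares LPD1, which fell, with 2-oxoglutarate dehydrogenase. Of 10 mitochondrial carriers tested, 4 fell and 3 rose, with a median of -0.19. The pyruvate carrier subunits MPC2 (-1.70) and MPC3 (-1.61) fell and MPC1 rose (0.76). MPC2 had 2430 and 3191 CPM in [PSI+] and 9302 and 8928 in [psi-], far above MPC1 at 39.3 and 40.4 against 26.5 and 20.8. Its mRNA went the other way, at a log2 ratio of 1.18 relative to the median of all genes. The source of this high footprint level was not tested. ODC1, the 2-oxodicarboxylate carrier, and DIC1, the dicarboxylate carrier, fell (-1.19 and -0.83), while the oxaloacetate carrier OAC1 (0.90) and the citrate carrier CTP1 (0.66) rose. ODC2, YHM2 and AGC1 did not pass, at between -0.21 and 0.47. In mRNA, 6 of 11 carriers were past 2-fold higher in [PSI+], against 21.6% of all genes, and MPC3 (-2.81) and SFC1 (-1.17) were past 2-fold lower, against 22.2%, in 1 library per strain.

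Of 10 minor isoenzymes and assembly factors, 5 fell and 5 (ICL2, SDH5, SDH7, SDH8 and TCM62) did not pass, at between -0.77 and 1.01. Those that fell were the succinate dehydrogenase paralogues SHH4 (-2.60) and YJL045W (-1.90), the second malate synthase DAL7 (-2.47), the assembly factor SDH6 (-1.74) and YMR31, a subunit of 2-oxoglutarate dehydrogenase (-0.49). SHH4 had 1 and 0 reads in [PSI+] and 13 and 21 in [psi-]. It passed the filter on low counts only through [psi-], so that its fall is partly set by the filter, and DAL7 reached the filter level in 1 [PSI+] library. Of 15 genes of acetate, lactate and fatty acid use tested, 10 fell and 5 (ADH2, CAT2, YAT1, CRC1 and ECI1) did not pass, at between -0.89 and -0.41. Of the 10, ACS1, POT1 and JEN1 reached the filter level in no [PSI+] library and were tested only through [psi-], so that their fall is partly set by the filter, and REG2, PXA2 and CTA1 reached it in 1. The acetyl-CoA synthetase ACS1 had 1 and 1 reads in [PSI+] and 22 and 25 in [psi-] (-2.79 ± 0.37), and the peroxisomal enzymes POT1 (-2.41) and SPS19 (-2.17) and the phosphatase regulator REG2 (-1.99) came next. In mRNA, 13 of 16 genes of acetate, lactate and fatty acid use were past 2-fold lower in [PSI+] and 1 past 2-fold higher. The shares of all genes were 22.2% and 21.6%, in 1 library per strain.

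Of 16 genes of carbon derepression, 3 fell and 2 rose, which is near the shares of all genes, with a median of -0.09. ADR1, an activator of the genes of ethanol and fatty acid use, fell by 0.88 ± 0.17, and HAP2 and HAP5, of the complex that binds CCAAT and activates respiratory genes, fell by 0.93 and 0.95. SIP1, a subunit of the Snf1 kinase, and MIG1, a glucose repressor, rose by 1.57 and 0.61. CAT8, the activator of gluconeogenesis and glyoxylate cycle genes, did not pass in footprints (-0.61 ± 0.39). In mRNA, 6 of the 16 were past 2-fold lower in [PSI+] and 2 past 2-fold higher, against 22.2% and 21.6% of all genes, in 1 library per strain. CAT8 (-3.71) and ADR1 (-3.65) were among the lower ones. Of 8 genes of retrograde signalling, RTG2 (-0.70) and MKS1 (-0.89) fell, RTG3 (0.62) rose, and RTG1, BMH1, BMH2, GRR1 and LST8 did not pass, at between -0.24 and 0.17. Of the 8 genes of the GID ubiquitin ligase, which marks gluconeogenic enzymes for degradation on glucose, VID28 (-1.27), UBC8 (-1.004) and VID30 (-0.68) fell, and RMD5, VID24, GID7, GID8 and FYV10 did not pass, at between -0.84 and 0.34. For YNB, the authors' deposited table gives 0 of the 79 listed genes an adjusted p under 0.05, against 1.47% of all genes. It gives 3 of them (MPC3, POX1 and POT1) an unadjusted p under 0.05, against 8.28% of all genes.

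The authors' deposited table for YPD lists 15 of the 29 genes, since it keeps those whose adjusted p was below 0.1. Of these, 13 were higher and 2 lower in [psi-] by the authors' deposited table. All 12 genes called here in footprints are in that table with the same direction. That table has 14 of the 29 genes with an adjusted p under 0.05. CIT2 and FUM1, which did not pass here, are among them (DESeq adjusted p 0.00079 and 0.0086), higher in [psi-]. With DESeq2 on all features they also passed here (adjusted p 0.012 and 0.045). With DESeq2 on the genes that passed the filter they did not (0.068 and 0.14). Since both come from the same counts, this is a comparison of 2 ways of testing them.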

How the data were processed

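Ribosome footprints and mRNA were measured in 10 samples of yeast in 6 groups, as the labels give them. For YPD the authors deposited whole-number counts per gene; per the submitters' processing notes these came from Bowtie 0.12.7, HTSeq 0.5.3p3 and the build sacCer2. The deposited counts have 1 added to every value. They were tested as deposited, and printed reads have it removed. Each [PSI+] footprint library has 2 runs, paired by counting noise, with chi-square values of 1.01 and 1.00 per degree of freedom, and summed, so a replicate number there is only a name. The deposited description calls the footprint libraries biological replicates. The authors deposited, as a normalized signal, ratio (fold), log2, p-value and adjusted p-value, their DESeq 1.6.1 results for YPD genes under an adjusted p of 0.1. For YNB the authors deposited condition means, folds, log10 folds and p-values from DESeq (cutadapt 1.2.1, Bowtie2, sacCer3). Those values were used as they stand, since the table has no counts per library.

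Counts were tested with edgeR 4.0.16 (TMM scaling, filterByExpr with a minimum count of 10, Benjamini-Hochberg adjustment over all genes), with DESeq2 1.42.0, on all features and on the filtered genes, as alternatives, in R 4.3.3. Footprint CPM use TMM-scaled totals, and mRNA CPM use library totals. Counting intervals are exact, at 95%. The procedure was also run on simulated counts with the same dispersion in every library. That setting differs from the unequal spread of the [PSI+] and [psi-] libraries, so it does not show how the calls behave under that spread. Coding lengths come from the RefSeq R64 annotation, which is another build than that of the YPD counts. The sources used here do not say how strand and multi-mapped reads were treated in counting. The genes, the lists and the tests were chosen with earlier results of these data known. All 29 genes are accounted for, and a further gene is not reported here; of the lists, the 4 largest footprint changes that passed and every footprint count of 5 or fewer are named, and CAT8 was named after its values were seen.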

Additional observations from a re-analysis of the deposited data

How the results depend on the processing

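The number of all genes called in YPD footprints was 1779, and it was 533 with the [psi-] libraries summed and between 492 and 3384 with 1 library left out. Of the cycle genes, 10 fell; 3 fell with the [psi-] libraries summed, and between 3 and 14 with 1 library left out. The 2 that rose became 4 with upper-quartile scaling, 1 with DESeq2 on all features and with the [psi-] libraries summed, and between 1 and 5 with 1 library left out. For translational efficiency, 2087 genes were called, 1271 with DESeq2 on the genes that passed the filter, a setting chosen after seeing the data, 1016 with the [psi-] libraries summed and between 985 and 3373 with 1 library left out. The 2 cycle genes that fell in it became 1 with RLE size factors and with the added counts subtracted, 0 with upper-quartile scaling, with DESeq2 on the genes that passed the filter and with the [psi-] libraries summed, and between 0 and 3 with 1 library left out; the 16 that rose stayed between 12 and 18 in all settings run. The cause of these shifts was not tested. RLE size factors moved the median of all genes in translational efficiency from 0.02 to 0.13, and upper-quartile scaling moved that of footprints from 0.02 to 0.17. DESeq2 on all features, of which 715 hold only the added count in every library, put these medians at -0.15 in footprints and -0.29 in translational efficiency; on the genes that passed the filter they were 0.016 and 0.10. The direction reversed for some values that had not passed. In footprints these were ACO1 (0.051) and SDH2 (0.050) with upper-quartile scaling; with 1 library left out, LSC1 ran from -0.57 to 0.032 and SDH2 from -0.25 to 0.035. In translational efficiency these were IDP3 (-0.10) and MDH2 (-0.11) with DESeq2 on all features; with 1 library left out, IDP2 ran from -0.051 to 1.19, IDP3 from -0.22 to 0.52 and MDH2 from -0.19 to 0.51. The median footprint to mRNA ratio in [psi-] was -2.04 from library totals and -1.71 relative to the median of all genes. The 21 genes with mRNA past 2-fold lower and the 0 past 2-fold higher, and the 0 called in YNB, were the same number in every setting run for them. Where a setting leaves 1 library in a strain, that library is assumed to vary like those of the other strain. No paired analysis was possible because the numbers of the [PSI+] libraries are only names. The planned searches of promoters and protein ends were not run. Depth limits MLS1, ICL1, CIT3, IDP2, PCK1 and FBP1 most.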
